A study of Mus musculus with 49 samples.

Results

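RNA from crypt cells that carry Bmi1-GFP was compared with RNA from crypt enteroendocrine cells sorted on the surface antigen CD24. The members are the 5 libraries that the labels give to these cells, 3 of Bmi1-GFP cells and 2 of enteroendocrine cells, out of 25 RNA libraries among the 49 samples of the series. The series profiles stem, progenitor and mature cells of mouse small-intestinal crypts, and the readout used here is the number of sequencing reads per gene.

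Bmi1-GFP cells came from mice of genotype Bmi-1GFP/+, a reporter at the Bmi1 locus, and were sorted as GFP-positive. Enteroendocrine cells came from Wild-Type mice and were sorted as high for CD24 and negative for the lectin UEA, which binds fucose on goblet and Paneth cells. The strain of both is labelled B6;129 mixed background, and neither group was treated. The cells are labelled adult, with no age in weeks. Both came from crypts of the proximal small intestine loosened in 5 mM EDTA after the villi were scraped off. Single cells were then released with 4X TrypLE for 45 min for the Bmi1-GFP sort and with 0.5 U/ml Dispase for 30 min for the enteroendocrine sort. Genotype, enzyme and sort therefore each separate the groups in the same way, and their parts in a difference cannot be told apart.

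Enteroendocrine cells are the hormone-releasing cells of the gut epithelium. They descend from crypt stem cells through a short-lived precursor that expresses Neurog3, and mature cells store peptide hormones or serotonin in granules together with granins. Bmi1 encodes a Polycomb protein, and its GFP reporter has been used to mark cells above the crypt base that were proposed as a reserve stem cell population. CD24 is abundant on Paneth, enteroendocrine and tuft cells.

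In the count table the column of enteroendocrine replicate 2 was bounded from below by that of replicate 1. Of 14606 genes with at least 1 read in enteroendocrine replicate 1, 0 were without reads in replicate 2. Between Bmi1-GFP replicates, 706 to 968 genes counted in a given library were at 0 in another. Among the 8711 genes with 200 or more reads in enteroendocrine replicate 1, the count in replicate 2 was never below 0.67 times that in replicate 1, while in the 6 ordered pairs of Bmi1-GFP replicates the lowest such ratio ranged from 0 to 0.0718. Of 10 hormone genes with that many reads, 6 had ratios of 0.72 or less, close to that bound, with Gip at 294314 and 204631 reads (ratio 0.695), Gcg at 7061 and 4777 (0.677) and Tac1 at 7260 and 4916 (0.677), while Sct (0.78), Pyy (0.789), Ghrl (1.03) and Sst (2.78) lay above it. Over all 8711 genes, 78 had ratios of 0.72 or less, and the median ratio was 1.45. Near the bound were also 6 of 8 lymphocyte genes and 8 of 18 myeloid and mast cell genes with that many reads. Among them were the mast cell protease gene Mcpt1 at 1339 and 907 reads (0.677) and the granzyme gene Gzma at 1791 and 1222 (0.682). Tuft cell genes lay far above the bound, and all 27 of those with 200 or more reads in replicate 1 had ratios from 2.61 to 22.1. Whether the column of replicate 2 contains reads of replicate 1 was not tested. P-values that take the 2 columns as separate samples may therefore understate the uncertainty of the enteroendocrine side.

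**Figure D1:**
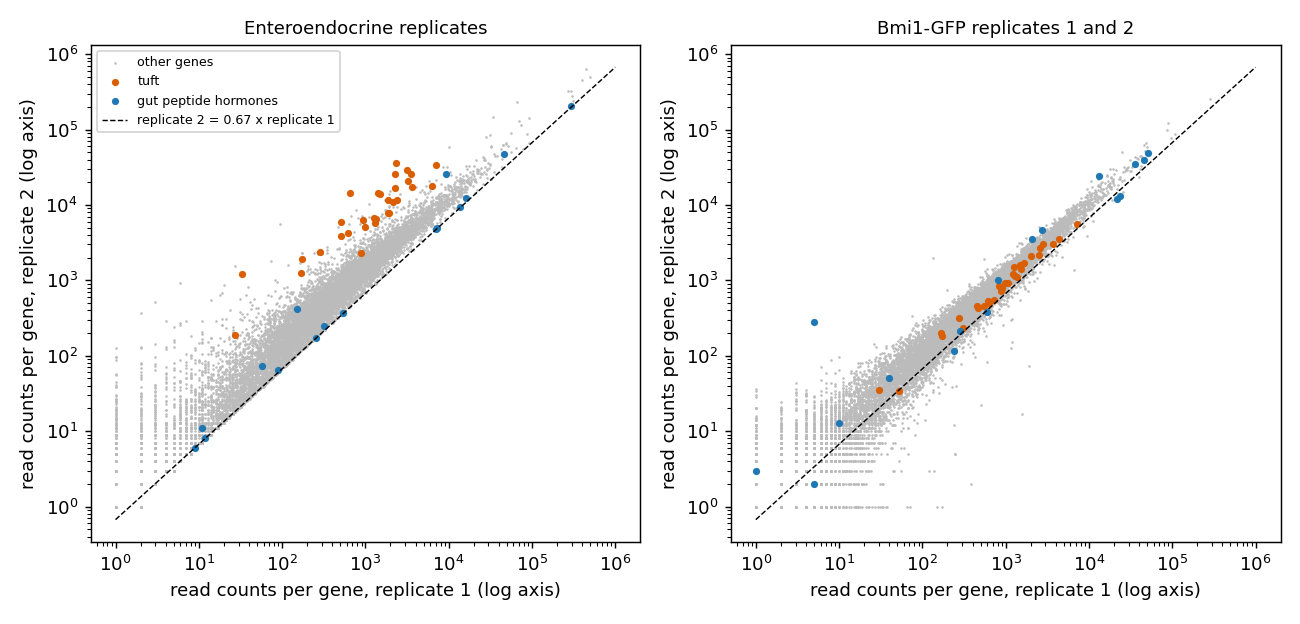
Read counts per gene in replicate 1 (x axis, log) against replicate 2 (y axis, log) for the enteroendocrine columns (left) and Bmi1-GFP replicates 1 and 2 (right), 1 point per gene with at least 1 read in both, tuft genes in orange and gut hormone genes in blue. In the left panel the points of 200 or more reads in replicate 1 stop at the dashed line of ratio 0.67. Of 10 hormone genes with that many reads 6 are close to the line, beside 78 of all 8711 genes, and tuft genes are above it. Some points of fewer reads lie below the line, and in the right panel points scatter on both sides.

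A lowest ratio as high was also seen from Lgr5-GFP-Cre replicate 2 to 3 (0.72) and from CD274+CD69+ control replicate 1 to 2 (0.66), although 674 and 592 genes counted in the first library of these pairs were at 0 in the second. The other 27 ordered replicate pairs of the series reached 0.212 or lower. Counts below are therefore given from the fit on 24 libraries and, beside it, from a reduced fit that leaves out enteroendocrine replicate 2, Lgr5-GFP-Cre replicate 3 and CD274+CD69+ control replicate 2. In the reduced fit enteroendocrine replicate 1 stands alone and is assumed to vary like the libraries of the other groups. Totals ranged from 14423446 to 20271364 reads in Bmi1-GFP libraries and were 17776587 and 24871834 in enteroendocrine libraries. The 10 most counted genes took 5.18 to 6.33% of reads in Bmi1-GFP libraries and 16.9 and 13.4% in enteroendocrine libraries. Replicates are labelled biological, but no label says whether any came from the same animal, so p-values measure spread between samples. That spread was estimated over the replicates of all 11 groups in the fit, not over these 5 libraries alone.

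Levels below are CPM, the reads of a gene relative to all reads of its library after TMM scaling, in the order of replicates 1, 2 and 3 for Bmi1-GFP and 1 and 2 for enteroendocrine cells. CPM are not per gene length, so levels are compared between libraries and not between genes. Differences are fitted log2 fold changes, Bmi1-GFP minus enteroendocrine, with standard error (SE). A gene is called, and described as higher or lower, when its edgeR p adjusted over all genes tested by Benjamini and Hochberg is below 0.05. Of 14837 genes tested, 3665 (24.7%) were called, of which 1874 (12.6%) had more RNA in Bmi1-GFP cells and 1791 (12.1%) had less. The median log2 fold change was 0. Shares over all genes given below beside list counts are those of this fit on 24 libraries, not of the reduced fit. The reduced fit called 1821 of 15421 genes, 1052 higher (6.82%) and 769 lower (4.99%), and 1608 of the 3665 calls were kept in it, all in the same direction. In bulk samples, fewer cells of a type and less RNA per cell cannot be told apart.

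The genes behind the sorts were examined first. Bmi1 had 22.04, 23.93 and 27.4 CPM in the Bmi1-GFP libraries and 25.82 and 29.64 CPM in enteroendocrine cells (log2 -0.18, SE 0.16, adjusted p = 0.424). The ranges of the groups overlapped, and the mRNA of the reporter's locus was not called different in the cells sorted for GFP. The genotype at this locus differs between the groups, Bmi-1GFP/+ against Wild-Type. Its effect on Bmi1 reads was not tested, so similar levels do not show similar activity of the locus. GFP is not among the genes tested, so the reporter itself has no value here. Cd24a, which encodes CD24, had 572.9, 499.4 and 281.9 CPM in the Bmi1-GFP libraries against 1823 and 3222 CPM (log2 -2.48, SE 0.33, adjusted p = 0.00013, and 0.00884 in the reduced fit). Every Bmi1-GFP library was below both enteroendocrine libraries. Of the fucosyltransferase genes that can make ligands of UEA, Fut1 was lower in Bmi1-GFP cells but near its detection limit (0.9403, 0.3108 and 0 against 3.63 and 1.884 CPM, adjusted p = 0.0231, lost in the reduced fit at 0.0601 and without enteroendocrine replicate 1 at 0.178 or Bmi1-GFP replicate 2 at 0.0776 or 3 at 0.0557), and Fut2 was not called (adjusted p = 0.671).

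Both populations carried the defining genes of enteroendocrine cells. The granin gene Chga had 1962, 1735 and 472.9 CPM in the Bmi1-GFP libraries and 1871 and 855.3 CPM in enteroendocrine cells (log2 0.03, SE 0.49, adjusted p = 0.975). Chgb stood at 2875, 3444 and 1033 against 4581 and 2140 CPM (adjusted p = 0.459). The prohormone convertase gene Pcsk1 stood at 92.39, 126.6 and 83.59 against 113.2 and 63.2 CPM (adjusted p = 0.696). The libraries of the groups overlapped for all 3 genes, and Bmi1-GFP replicate 3 was the lowest of its group. Neurod1, a transcription factor of committed endocrine cells, was likewise not called at 166, 139.8 and 86.64 against 204.5 and 99 CPM (log2 -0.21, SE 0.45, adjusted p = 0.763).

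Among gut peptide hormones the populations differed by gene rather than in the family as a whole. Of 23 hormone genes listed, 16 passed the filter on low counts. Of these, 4 were higher and 2 lower in Bmi1-GFP cells, beside 12.6% and 12.1% over all genes. Their median log2 fold change was 0.31. The reduced fit called 2 higher, Nts and Cck, and 1 lower, Gip. Upstream sequence is shown for these 3 genes, since they are the hormone calls that both fits hold. Each run is the 250 bases before the RefSeq start on GRCm38.p6, 5′ to 3′ along the gene, and capitals mark E-boxes (CANNTG, the site type of basic helix-loop-helix factors such as NEUROG3 and NEUROD1) and AP-1 sites (TGANTCA). The positions are chr10:102490419-102490668 (minus strand) for Nts, chr9:121495695-121495944 (minus strand) for Cck and chr11:96024295-96024544 (plus strand) for Gip. The start used for Gip lies inside its RefSeq gene record, which begins at chr11:96024532. The last bases of its run are therefore within that record.
Nts: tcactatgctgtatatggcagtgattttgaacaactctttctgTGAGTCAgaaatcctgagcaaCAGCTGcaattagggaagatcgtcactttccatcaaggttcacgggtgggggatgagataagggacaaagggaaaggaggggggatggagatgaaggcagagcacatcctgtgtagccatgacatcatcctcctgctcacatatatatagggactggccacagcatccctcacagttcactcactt
Cck: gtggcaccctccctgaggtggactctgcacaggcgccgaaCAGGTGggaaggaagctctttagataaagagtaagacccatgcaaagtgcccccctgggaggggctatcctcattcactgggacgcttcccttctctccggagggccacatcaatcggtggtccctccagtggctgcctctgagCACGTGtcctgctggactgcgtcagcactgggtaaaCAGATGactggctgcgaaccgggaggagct
Gip: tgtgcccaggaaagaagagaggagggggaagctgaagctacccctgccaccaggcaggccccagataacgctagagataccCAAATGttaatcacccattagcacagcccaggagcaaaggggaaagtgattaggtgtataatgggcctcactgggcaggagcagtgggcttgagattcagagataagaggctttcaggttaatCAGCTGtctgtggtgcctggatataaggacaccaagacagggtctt

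Nts held 1 E-box and 1 AP-1 site in this window, Cck 3 E-boxes and Gip 2. None of the 3 windows held a cAMP response element (TGACGTCA), TATAAA or CCAAT. Motifs were searched on both strands, without overlap between the marked matches. Of 32851 RefSeq promoters of that length, 66.2% held an E-box, 6.75% an AP-1 site, 1.55% a cAMP response element, 12.4% TATAAA and 33.8% CCAAT. A match is a description of the letters and says nothing of binding.

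Nts encodes neurotensin, a hormone released after fatty meals. The level of Nts was 160.7, 240.4 and 193.3 CPM in Bmi1-GFP cells and 0.7026 and 0.3076 CPM in enteroendocrine cells (log2 8.68, SE 1.07, adjusted p = 8.18e-05, and 0.00592 in the reduced fit). All 3 Bmi1-GFP libraries were high and both enteroendocrine libraries were near 0. Cck, the hormone that triggers gallbladder contraction and pancreatic secretion, stood at 2658, 2051 and 2105 against 809.8 and 365.2 CPM (log2 1.95, SE 0.36, adjusted p = 0.00139, and 0.034 in the reduced fit). The groups did not overlap, and the means differed 3.87-fold. Gip, the incretin of K cells, differed in the opposite direction, at 2085, 1824 and 735.8 against 17230 and 7867 CPM (log2 -3.02, SE 0.5, adjusted p = 0.000661, and 0.00454 in the reduced fit). Even the lowest enteroendocrine library was well above the highest Bmi1-GFP library.

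Gcg, whose product is cut into GLP-1 in L cells, stood at 780.5, 1254 and 457.3 against 413.4 and 183.7 CPM (log2 1.48, SE 0.42, adjusted p = 0.0164). The lowest Bmi1-GFP library was just above the higher enteroendocrine library, and the call was lost in the reduced fit (adjusted p = 0.175), without enteroendocrine replicate 2 (0.163) and without Bmi1-GFP replicate 2 (0.0505). Gast, which encodes gastrin, was at 0.2938, 14.5 and 52.3 against 0.527 and 0.2307 CPM. Its call (adjusted p = 0.0209) rested on Bmi1-GFP replicates 2 and 3, the groups overlapped, and DESeq2 did not call it (0.529), nor did the reduced fit (0.177) or fits without enteroendocrine replicate 1 (0.12) or 2 (0.115). Gal, the neuropeptide galanin, was low throughout (0.5877, 0.6733 and 0.08739 against 5.211 and 2.499 CPM, adjusted p = 0.0302), and its call was lost when any library of either group was left out (adjusted p from 0.0538 without Bmi1-GFP replicate 2 to 0.245 without enteroendocrine replicate 1), with DESeq2 (0.0739) and in the reduced fit (0.0824).

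Several hormones of high level were not called. Ghrl, which encodes ghrelin, stood at 2972, 2566 and 2435 against 2720 and 1837 CPM (log2 0.22, SE 0.37, adjusted p = 0.696). Secretin, Sct, stood at 1371, 680.3 and 766.9 against 939.9 and 481.1 CPM, and somatostatin, Sst, at 1261, 628.7 and 329.2 against 543.8 and 993.9 CPM (adjusted p = 0.511 and 0.945). The groups overlapped for all 3. The tachykinin gene Tac1, which marks enterochromaffin cells with Tph1, was at 121.4, 183.5 and 37.71 against 425.1 and 189 CPM and just missed the threshold (log2 -1.43, SE 0.52, adjusted p = 0.0523). The summed level of the hormone list was 11530, 9535 and 7145 CPM in Bmi1-GFP cells and 23170 and 11970 CPM in enteroendocrine cells, which differ in Gip above all.

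**Figure D2:**
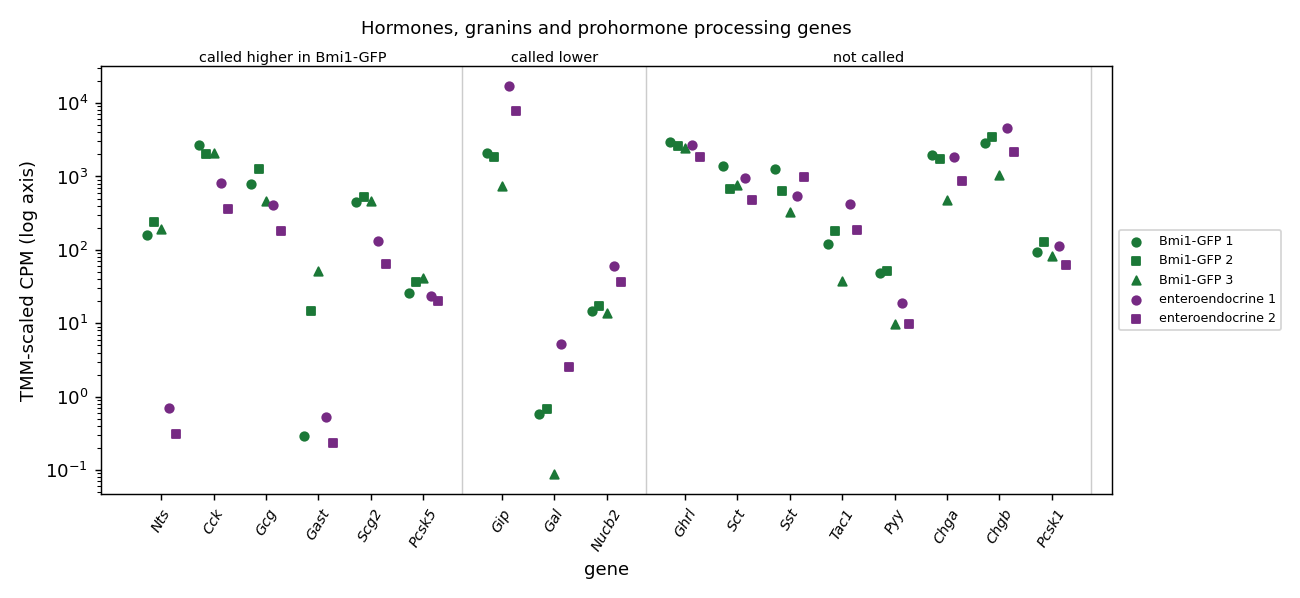
TMM-scaled CPM on a log axis (y) for hormone, granin and prohormone processing genes (x), 1 symbol per library, Bmi1-GFP in green and enteroendocrine in purple. The Nts symbols of the 2 groups are furthest apart, from 160.7 to 240.4 CPM against under 1 CPM, Gip is reversed, and Ghrl, Sct, Sst and Chga overlap.

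Of 17 granin and prohormone processing genes, 2 were higher, 1 was lower and 14 were not called (median log2 0.35). The shares over all genes were 12.6% higher and 12.1% lower. Scg2, a granin precursor of secretoneurin, stood at 442.2, 524.1 and 470.1 against 131.3 and 63.86 CPM (log2 2.3, SE 0.29, adjusted p = 9.79e-05, and 0.00583 in the reduced fit). The Bmi1-GFP libraries were close together and all above the enteroendocrine ones, unlike Chga and Chgb. Nucb2, the precursor of nesfatin, was lower at 14.52, 16.94 and 13.72 against 60.78 and 36.29 CPM (log2 -1.69, SE 0.33, adjusted p = 0.00201, 0.0107 in the reduced fit and 0.0542 without enteroendocrine replicate 1). The convertase gene Pcsk5 was 1.6-fold higher (adjusted p = 0.0236). It was not called in the reduced fit (0.15), without Bmi1-GFP replicate 3 (0.0969), and without enteroendocrine replicate 1 (0.0873) or 2 (0.145).

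In the serotonin and enterochromaffin list 3 of 16 tested genes were higher and 2 lower (2 and 0 in the reduced fit). The serotonin transporter gene Slc6a4, which takes serotonin up from the tissue, stood at 60.94, 59.61 and 57.63 against 8.841 and 19.95 CPM (log2 2.03, SE 0.38, adjusted p = 0.00154, and 0.00766 in the reduced fit). Maoa, which degrades serotonin, stood at 474.5, 401.1 and 839.7 against 187.4 and 163.8 CPM (log2 1.7, SE 0.36, adjusted p = 0.00283, and 0.0474 in the reduced fit). Both genes are also expressed in absorptive enterocytes, whose markers were higher in Bmi1-GFP cells as described further on. Maob was higher and the GDNF-family receptor gene Gfra3 lower (adjusted p = 0.013 and 0.029), and the reduced fit kept neither (0.0641 and 0.0623). Maob was also lost without enteroendocrine replicate 1 (0.151). Gfra3 was lost without enteroendocrine replicate 1 (0.329) or Bmi1-GFP replicate 1 (0.0696), 2 (0.0629) or 3 (0.096). Tph1, which makes serotonin and was chosen after its values were seen, was not called at 515.4, 273.4 and 112.7 against 220.2 and 97.77 CPM (adjusted p = 0.175). For the counts of this list, the shares over all genes were 12.6% higher and 12.1% lower.

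Of 34 tested genes of regulated exocytosis, 2 were higher, 6 lower and 26 not called (median log2 -0.48), beside 12.6% and 12.1% over all genes. In the reduced fit 0 were higher and 4 lower, and 0 and 3 were called without enteroendocrine replicate 1. Scgn, which encodes the calcium sensor secretagogin of endocrine cells, stood at 75.05, 96.59 and 59.6 against 384 and 205.9 CPM (log2 -1.94, SE 0.39, adjusted p = 0.00217, 0.0115 in the reduced fit and 0.0738 without enteroendocrine replicate 1). The synaptotagmin gene Syt2 had 0 reads in all 3 Bmi1-GFP libraries against 2.225 and 0.9996 CPM, at least 31.8-fold lower against a floor of 3 reads over the group (adjusted p = 0.00358, and 0.0193 in the reduced fit). The granule GTPase genes Rab3d and Rab27a were 2.34-fold and 3.1-fold lower (adjusted p = 0.00689 and 0.00299). The reduced fit kept Rab3d (0.0389). Rab27a lost its call in the reduced fit (0.153) and without enteroendocrine replicate 2 (0.0843), and Rab3d without enteroendocrine replicate 1 (0.0935).

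Of 23 genes of early endocrine commitment, all tested, 9 were lower in Bmi1-GFP cells, 1 was higher and 13 were not called, with a median log2 fold change of -1.12. In the reduced fit 6 were lower and 1 higher, with a median of -1.38. Leaving out enteroendocrine replicate 1 gave 3 lower and 0 higher (median -0.65), and without Bmi1-GFP replicate 3, 5 were lower and 1 higher. Over all genes 12.1% were called lower. Neurog3, the factor that starts endocrine differentiation, had 4.584, 12.17 and 3.627 CPM in the Bmi1-GFP libraries and 75.53 and 36.41 CPM in enteroendocrine cells (log2 -3.04, SE 0.66, adjusted p = 0.00367, 0.0156 in the reduced fit and 0.0577 without enteroendocrine replicate 1). No Bmi1-GFP library reached the lower enteroendocrine library. Dll3, a Notch ligand gene that is transiently expressed in endocrine precursors, stood at 0.2351, 0.9841 and 0.6554 against 9.719 and 5.728 CPM (log2 -3.6, SE 0.58, adjusted p = 0.000612, and 0.0055 in the reduced fit).

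Hes6, an antagonist of the Notch effector HES1, stood at 76.64, 80.12 and 51.73 against 232 and 169 CPM (log2 -1.53, SE 0.27, adjusted p = 0.00107, and 0.00941 in the reduced fit). Rfx3, a regulator of ciliary and endocrine genes, stood at 11.17, 12.02 and 12.23 against 32.03 and 24.41 CPM (adjusted p = 0.00148, and 0.0136 in the reduced fit). For both the groups did not overlap, and the Bmi1-GFP replicates spread little for Rfx3. Pax4, Neurod2, Nkx2-2, Cbfa2t3 and St18 were the other factors called lower, between 2.57-fold for Nkx2-2 and 6.37-fold for Neurod2. The reduced fit kept Pax4 and Cbfa2t3 (adjusted p = 0.0378 and 0.0352). Each of these 5 calls was lost without enteroendocrine replicate 1 (adjusted p from 0.153 for St18 to 0.397 for Nkx2-2), and the calls of Neurod2, Nkx2-2 and St18 also without Bmi1-GFP replicate 1 (0.0677, 0.0911 and 0.118) or 3 (0.0853, 0.111 and 0.127) and in the reduced fit (0.0704, 0.0596 and 0.132). Pax4 was lost without Bmi1-GFP replicate 3 too (0.0532), Neurod2 and Nkx2-2 without replicate 2 (0.051 and 0.0565), and St18 without enteroendocrine replicate 2 (0.101). Atoh8, a relative of the secretory lineage factor Atoh1, was the member called higher, at 1.822, 3.056 and 2.359 against 0.4684 and 0.7305 CPM (adjusted p = 0.00639, 0.043 in the reduced fit and 0.0859 without enteroendocrine replicate 1). Atoh1 itself was not called at 19.86, 27.24 and 18.13 against 37.71 and 25.03 CPM (adjusted p = 0.185).

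Transcription factors that set or mark endocrine subtypes were called in both directions, beside 12.6% of all genes called higher and 12.1% lower. Of 24 tested, 6 were higher and 4 lower (median log2 0.03), and the reduced fit called 2 higher and 3 lower. Without enteroendocrine replicate 1, 3 were higher and 0 lower. Onecut3 stood at 22.39, 17.4 and 16.82 against 1.639 and 0.7689 CPM (log2 3.98, SE 0.88, adjusted p = 0.00484, and 0.0491 in the reduced fit). Its Bmi1-GFP libraries lay about an order of magnitude above the enteroendocrine ones. Etv1, Peg3, Onecut2 and Gata4 were 4.57-fold, 3.62-fold, 1.7-fold and 1.66-fold higher, and the reduced fit kept none of them (adjusted p = 0.0822, 0.122, 0.0868 and 0.0579). Without enteroendocrine replicate 2, Etv1, Peg3 and Onecut2 were not called (0.0681, 0.0819 and 0.0695), nor were Peg3, Onecut2 and Gata4 without replicate 1 (0.137, 0.0792 and 0.257). Peg3 was lost without Bmi1-GFP replicate 2 (0.0712) and Gata4 without Bmi1-GFP replicate 3 (0.079).

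On the low side, the LIM homeobox gene Isl1 stood at 54.71, 50.29 and 26.35 against 204.4 and 120.4 CPM (log2 -1.89, SE 0.37, adjusted p = 0.00187, 0.00968 in the reduced fit and 0.0561 without enteroendocrine replicate 1). Pax6, which activates hormone genes, stood at 16.04, 14.71 and 10.18 against 51.35 and 25.3 CPM (adjusted p = 0.0155, 0.0278 in the reduced fit, 0.317 without enteroendocrine replicate 1 and 0.0622 without Bmi1-GFP replicate 3). Zcchc12 was 7.46-fold lower (adjusted p = 0.00495, 0.0309 in the reduced fit and 0.0725 without enteroendocrine replicate 1). Rfx6 and Pdx1 were not called (adjusted p = 0.0793 and 0.731). The groups did not overlap for Rfx6, which stood at 25.27, 41.95 and 16.12 against 111.2 and 56.67 CPM.

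**Figure D3:**
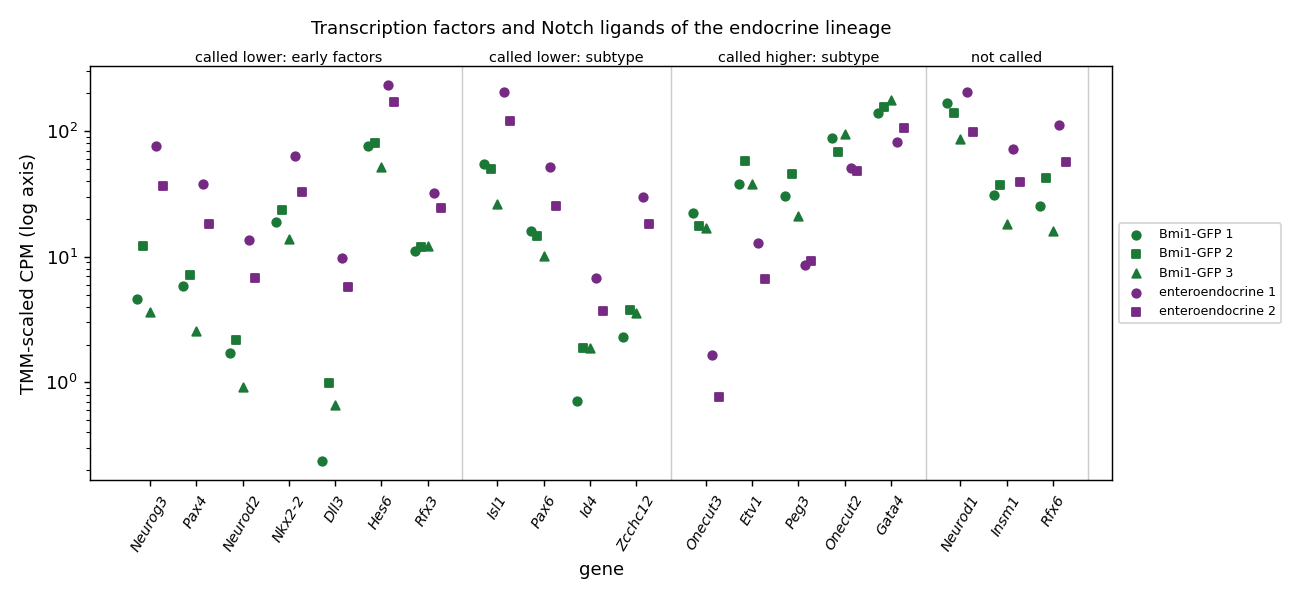
TMM-scaled CPM on a log axis (y) for endocrine transcription factor and Notch ligand genes (x), 1 symbol per library, Bmi1-GFP in green and enteroendocrine in purple. Early factors such as Neurog3 (3.627 to 12.17 against 36.41 and 75.53 CPM) sit lower in Bmi1-GFP libraries, and Onecut3 sits higher.

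Notch receptors and targets, the pathway that the early ligands act on, showed 5 of 22 tested genes higher and 2 lower (4 and 1 in the reduced fit), beside 12.6% and 12.1% over all genes. Without enteroendocrine replicate 1, 1 was higher and 1 lower. Dtx3l, an E3 ligase gene of the Deltex family, stood at 57.95, 54.95 and 63.14 against 18.79 and 21.03 CPM (log2 1.56, SE 0.17, adjusted p = 3.34e-05, and 0.00252 in the reduced fit). Lfng, a glycosyltransferase that tunes Notch to its ligands, was lower at 12.28, 8.442 and 6.991 against 34.08 and 32.52 CPM (adjusted p = 0.000424, and 0.00912 in the reduced fit). The groups did not overlap for either gene. Heyl, a Notch target, stood at 7.405, 6.06 and 1.66 against 0 and 0.2691 CPM (adjusted p = 0.00508, 0.015 in the reduced fit and 0.0645 without enteroendocrine replicate 1). The Notch effector gene Hes1, chosen after its values were seen, was not called (adjusted p = 0.755).

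Receptors for nutrients and hormones included 8 of 36 tested genes called higher and 2 called lower (3 and 1 in the reduced fit), beside 12.6% and 12.1% over all genes. Without enteroendocrine replicate 1, 1 was higher and 0 lower. Glp1r, the receptor for GLP-1, stood at 6.523, 4.972 and 2.578 against 0 and 0.4229 CPM (adjusted p = 0.00689, 0.0106 in the reduced fit and 0.0749 without enteroendocrine replicate 1). The calcium-sensing receptor gene Casr and the zinc receptor gene Gpr39 were 13.1-fold and 3.2-fold higher (adjusted p = 0.00965 and 0.00579), and Slc5a1, which encodes the sodium-glucose transporter SGLT1 of the brush border, was 4.37-fold higher (0.00374). The reduced fit kept none of these 3 (adjusted p = 0.0863, 0.0534 and 0.0704). Casr and Gpr39 were also lost without enteroendocrine replicate 1 (0.0875 and 0.0709), and Casr without replicate 2 (0.0674). The fatty acid receptor gene Ffar2 was not called at 52.42, 44.8 and 25.43 against 85.25 and 46.36 CPM (adjusted p = 0.16).

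Among ion channels 6 of 36 tested genes were higher and 1 lower, beside 12.6% and 12.1% over all genes. Their median log2 fold change was 0.62, and 0.48 in the reduced fit. Leaving out enteroendocrine replicate 1 gave 0 higher and 1 lower. Scn9a, a voltage-gated sodium channel gene, had 1.175, 1.347 and 2.534 CPM against 0 reads in both enteroendocrine libraries, at least 24.2-fold higher against a floor of 3 reads over the group (adjusted p = 0.011). Its call was lost with DESeq2 (0.41), in the reduced fit (0.076) and without enteroendocrine replicate 1 (0.0768) or 2 (0.0609). The sodium channel subunit gene Scn3b stood at 2.88, 3.522 and 3.233 against 0 and 0.1538 CPM (adjusted p = 0.0127, 0.0409 in the reduced fit and 0.13 without enteroendocrine replicate 1). The chloride transporter gene Clcn5 was 4.54-fold higher (adjusted p = 0.00554, 0.0457 in the reduced fit and 0.076 without enteroendocrine replicate 1).

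Absorptive enterocyte genes were higher in Bmi1-GFP cells, 27 of 32 tested against 12.6% of all genes, and 0 were lower (median log2 2.38). The reduced fit called 13 higher and 0 lower, with a median of 2.29, and 15 and 16 were higher without enteroendocrine replicate 1 and 2. Enpep, a brush border aminopeptidase gene, stood at 349.1, 386.1 and 466 against 46.43 and 53.21 CPM (log2 3.01, SE 0.4, adjusted p = 0.000136, and 0.00766 in the reduced fit). Mep1b, a meprin protease gene, stood at 317.7, 242.7 and 498.5 against 27.58 and 36.25 CPM (log2 3.47, SE 0.5, adjusted p = 0.00026, and 0.00962 in the reduced fit). In both cases the groups were far apart, and replicate 3 was the highest Bmi1-GFP library. The amino acid transporter gene Slc7a9 and the triglyceride transfer gene Mttp were 6.83-fold and 5.31-fold higher (adjusted p = 9.79e-05 and 0.00103), and both were kept in the reduced fit (0.00385 and 0.0263). Fabp1, a fatty acid binding protein gene, was not called at 2431, 1546 and 3210 against 496.5 and 1218 CPM (adjusted p = 0.147).

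The summed enterocyte level was 19570, 13760 and 32490 CPM in Bmi1-GFP libraries and 5443 and 5462 CPM in enteroendocrine libraries. In Paneth libraries, released with Dispase like the enteroendocrine cells, it was 12250 and 24250 CPM, and in Lgr5-GFP-Cre libraries, released with TrypLE like the Bmi1-GFP cells, it was 8415 to 11730 CPM. The part of enterocytes in other differences was not tested.

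Genes of lymphocytes were higher in Bmi1-GFP cells too, 20 of 30 tested and 0 lower (median log2 3.26), and 10 and 0 in the reduced fit and without enteroendocrine replicate 2. Cd8a, a coreceptor gene of cytotoxic T cells, stood at 82.57, 44.49 and 36.92 CPM against 0 reads in both enteroendocrine libraries, at least 785-fold higher against a floor of 3 reads over the group (adjusted p = 0.000162, and 0.00647 in the reduced fit). Cd96, a receptor gene of T and NK cells, stood at 35.26, 19.58 and 21.72 CPM against 0 reads, at least 367-fold higher (adjusted p = 8.58e-05, and 0.00513 in the reduced fit). Bmi1-GFP replicate 1 was the highest library for both. For the counts of the lymphocyte list, the shares over all genes were 12.6% higher and 12.1% lower. The T cell receptor subunit gene Cd3e stood at 95.97, 53.45 and 45.09 against 7.377 and 3.499 CPM (adjusted p = 0.00269, and 0.0393 in the reduced fit), and the granzyme gene Gzmb at 623.7, 366.6 and 220.7 against 24.47 and 11.03 CPM (log2 4.51, SE 0.71, adjusted p = 0.000478, and 0.0128 in the reduced fit). Gzma stood at 1106, 607.3 and 453.4 against 104.9 and 46.98 CPM (adjusted p = 0.00532, 0.0634 in the reduced fit and 0.0568 without enteroendocrine replicate 2).

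Other lymphocyte genes were low or shared. Cd4 and Cd8b1 were under 2 CPM in all 5 libraries and not called (adjusted p = 0.166 and 0.444). The B cell gene Cd79a stood at 6.523, 5.594 and 0.8739 against 6.616 and 3.499 CPM (adjusted p = 0.849). Ptprc, the pan-leukocyte marker CD45, which is also expressed by tuft cells, stood at 99.91, 64.59 and 43.87 against 42.39 and 74.01 CPM (adjusted p = 0.785). The summed lymphocyte level was 3344, 1979 and 1489 CPM in Bmi1-GFP libraries, 370 and 231.4 CPM in enteroendocrine libraries, 176.9 and 85.73 CPM in Paneth libraries and 43.47 to 74.11 CPM in Lgr5-GFP-Cre libraries. Fcer1g and Ctsw, genes of the myeloid list and of cytotoxic lymphocytes, were also higher (2.68-fold and 20.8-fold, adjusted p = 0.0486 and 0.00181). The Ctsw call was kept in the reduced fit (0.0323). The Fcer1g call was lost without enteroendocrine replicate 1 (0.0698) or 2 (0.283) and without Bmi1-GFP replicate 1 (0.129) or 3 (0.0612), and in the reduced fit (0.294).

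The summed level of myeloid and mast cell genes overlapped, at 4215, 3565 and 4766 CPM in Bmi1-GFP libraries and 5969 and 3043 CPM in enteroendocrine libraries. Of 18 members with 200 or more reads in enteroendocrine replicate 1, 8 had ratios of 0.72 or less to replicate 2, close to the bound. Over all genes 12.1% were called lower and 12.6% higher. Of 33 tested members, 14 were lower in Bmi1-GFP cells, 3 higher and 16 not called (median log2 -1.33, and -1.18 in the reduced fit). The higher ones were Fcer1g and the macrophage receptor genes Fcgr3 and Mrc1, the latter pair at 2.88 CPM or less in every library (adjusted p = 0.0105 and 0.0168, and 0.0243 and 0.104 in the reduced fit). Mcpt1, a protease gene of mucosal mast cells, had 0 reads in all Bmi1-GFP libraries against 78.4 and 34.87 CPM, at least 1120-fold lower against a floor of 3 reads over the group (adjusted p = 0.000442, and 0.00513 in the reduced fit). The dendritic cell lectin gene Cd209a had 0 reads in Bmi1-GFP libraries against 27.87 and 12.92 CPM, at least 402-fold lower (adjusted p = 6.57e-05, and 0.00162 in the reduced fit). Il1b, an inflammatory cytokine gene, stood at 1.939, 0.05179 and 0.8302 against 104 and 50.44 CPM (log2 -6.37, SE 0.82, adjusted p = 0.000335, and 0.00458 in the reduced fit). The decoy receptor gene Il1r2, the cytokine receptor gene Csf2rb and the chemokine gene Cxcl2 were 459-fold, 136-fold and 66.2-fold lower, with Bmi1-GFP libraries under 1 CPM, and were kept in the reduced fit (adjusted p = 0.00205, 0.00454 and 0.00358).

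The defining macrophage marker Lyz2 stood at 14.87, 2.072 and 16.21 against 273.3 and 158.8 CPM (adjusted p = 0.000364, and 0.00513 in the reduced fit), and Csf1r at 0.05877, 0.3108 and 0.568 against 10.48 and 5.959 CPM (adjusted p = 0.00268, and 0.0154 in the reduced fit). Itgam, which encodes CD11b, was not called at 9.756, 13.88 and 13.63 against 12.41 and 9.073 CPM (adjusted p = 0.62), and Cd74, the invariant chain of MHC class II, was not called either (adjusted p = 0.801). The stromal markers Col1a1 and Col3a1 were at 1.234 CPM or below in all 5 libraries. The endothelial marker Cdh5 had 0 reads in all 5. Pecam1, also an endothelial marker, stood at 3.409, 3.056 and 1.748 against 1.112 and 0.4998 CPM, without overlap, and was not called (adjusted p = 0.156). Of 13 tested stromal and endothelial genes, 0 were higher and 1 lower, beside 12.6% and 12.1% over all genes. The lower one, Vim, stood at 24.68, 25.38 and 10.62 against 97.96 and 44.79 CPM (adjusted p = 0.00287). The part of immune cells in other differences was not tested.

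Paneth cell genes were lower in Bmi1-GFP cells, 19 of 29 tested, with 1 higher (median log2 -2.48), and 14 and 0 in the reduced fit. The lysozyme gene Lyz1 stood at 5224, 6335 and 3743 against 25800 and 24250 CPM (log2 -2.29, SE 0.43, adjusted p = 0.00138, and 0.0162 in the reduced fit). The alpha-defensin gene Defa24 stood at 321.8, 289.2 and 238 against 5079 and 3312 CPM (log2 -3.89, SE 0.46, adjusted p = 5.66e-05, and 0.00134 in the reduced fit). Mmp7, the protease that activates defensins, stood at 104.8, 112 and 94.77 against 966.5 and 626.5 CPM (log2 -2.94, SE 0.43, adjusted p = 0.000295, and 0.00413 in the reduced fit). Enteroendocrine libraries were several times above every Bmi1-GFP library for each. Reads of single alpha-defensin genes are uncertain because near-identical copies can share them. Beside the counts of the Paneth list, 12.1% of all genes were called lower and 12.6% higher. The summed Paneth list reached 92680 and 77720 CPM in enteroendocrine libraries, 12160 to 16320 CPM in Bmi1-GFP libraries and 526700 and 264500 CPM in Paneth libraries.

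Goblet cell genes were lower as well, 12 of 30 tested, with 1 higher (median log2 -0.86), and 10 and 1 in the reduced fit. Without enteroendocrine replicate 1, 6 were lower and 0 higher (median -0.45). Spink4, a protease inhibitor gene of goblet granules, stood at 453.9, 559.1 and 509 against 18420 and 9055 CPM (log2 -4.76, SE 0.5, adjusted p = 2.97e-05, and 0.000406 in the reduced fit). The mucin gene Muc2 was 2.09-fold lower (adjusted p = 0.0185) but was not called in the reduced fit (0.0526) or without enteroendocrine replicate 1 (0.257) or Bmi1-GFP replicate 1 (0.0703) or 2 (0.106). The defining marker Clca1, listed in the table under its older symbol Clca3, was the member that was higher, at 600.4, 528.2 and 651.4 against 261.2 and 161.7 CPM (adjusted p = 0.0438). That call was lost in the reduced fit (0.267) and when any library of either group was left out (0.0508 without Bmi1-GFP replicate 2 to 0.228 without enteroendocrine replicate 2). The member called higher in the reduced fit was St6galnac1, named after its values were seen (adjusted p = 0.127 in the fit on 24 libraries and 0.0385 in the reduced fit). Fcgbp, a mucus protein gene, was not called (adjusted p = 0.807). Beside the counts of the goblet list, 12.1% of all genes were called lower and 12.6% higher. The chemokine genes Ccl6 and Ccl9 on this list, which myeloid cells also express, were 5.03-fold and 6.99-fold lower and were kept in the reduced fit (adjusted p = 0.003 and 0.00282).

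Tuft cell genes gave the result that depended most on the second enteroendocrine column. Of 32 tested, 20 were lower in Bmi1-GFP cells and 0 higher (median log2 -2.22), but the reduced fit called 1 lower, Gng13, with a median of -0.69. Without enteroendocrine replicate 2 alone, 3 were lower, and without Bmi1-GFP replicates 2 and 3, 9 and 8. The kinase gene Dclk1 had 98.62, 88.2 and 43.91 CPM in the Bmi1-GFP libraries and 204 and 984.8 CPM in enteroendocrine cells (adjusted p = 0.0187, 0.387 in the reduced fit, 0.308 without enteroendocrine replicate 2, and 0.0529 and 0.0709 without Bmi1-GFP replicates 2 and 3). The taste channel gene Trpm5 stood at 152.5, 140.7 and 69.04 against 134.2 and 997.7 CPM (adjusted p = 0.0801). Enteroendocrine replicate 1 lay within the Bmi1-GFP range for Trpm5 and replicate 2 far above it. Pou2f3, the master regulator of tuft cells, stood at 16.4, 16.16 and 3.845 against 76.12 and 219.6 CPM (log2 -3.61, SE 0.79, adjusted p = 0.00379, and 0.0794 in the reduced fit). Gng13, a G protein subunit gene of taste signalling, stood at 1.763, 1.813 and 0.4369 against 51.64 and 88.46 CPM (log2 -5.73, SE 0.8, adjusted p = 0.000206, and 0.00632 in the reduced fit). The summed tuft level was 2692, 2168 and 1099 CPM in Bmi1-GFP libraries and 3325 and 14390 CPM in enteroendocrine libraries. Beside the counts of the tuft list, 12.1% of all genes were called lower and 12.6% higher.

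**Figure D4:**
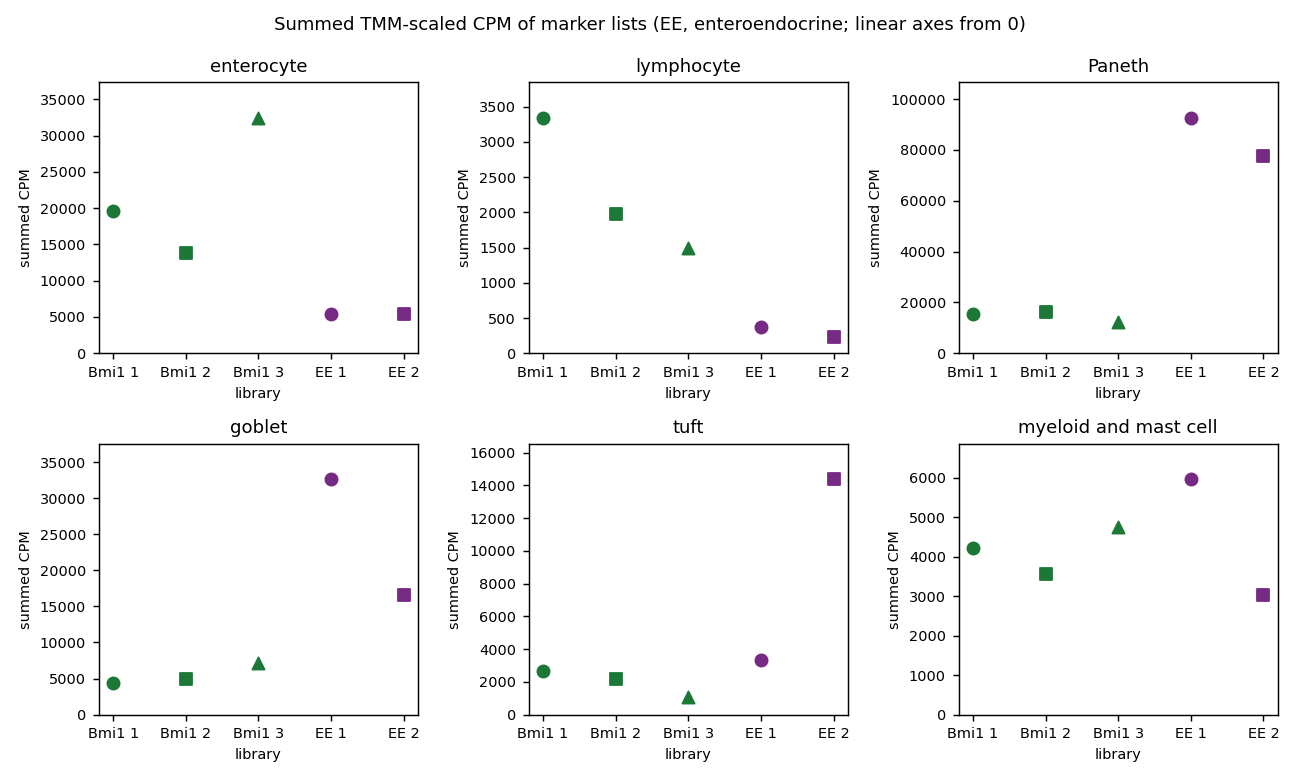
Summed TMM-scaled CPM (y axis, linear from 0) of 6 marker lists in the 5 libraries (x axis), Bmi1-GFP in green and enteroendocrine (EE) in purple. Enterocyte and lymphocyte sums are higher in all Bmi1-GFP libraries, Paneth and goblet sums are lower, and the tuft sum is high in enteroendocrine replicate 2 alone (14390 CPM against 3325 CPM in replicate 1). The myeloid and mast cell sums of the groups overlap.

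Of 32 stem cell and Wnt target genes tested, 4 were lower, 0 higher and 28 not called (median log2 -0.28), and the reduced fit called 3 lower and 0 higher. Over all genes 12.1% were called lower and 12.6% higher, so the share called lower in this list was near that of all genes. Lgr5, chosen after its values were seen, was not called at 17.4, 22.17 and 23.38 against 29.39 and 46.56 CPM (adjusted p = 0.103). Olfm4 stood at 620, 1092 and 884.9 against 728.7 and 612.8 CPM (adjusted p = 0.699). Nkd1, a negative regulator of Wnt signalling, was the most significant of them at 2.468, 2.952 and 2.316 against 16.63 and 39.87 CPM (log2 -3.45, SE 0.37, adjusted p = 2.97e-05, and 0.00276 in the reduced fit). The Wnt coreceptor gene Lrp5 stood at 7.17, 5.904 and 5.942 against 14.4 and 14.65 CPM (adjusted p = 0.000474, and 0.0117 in the reduced fit). Of 5 reported markers of cells above the crypt base, Hopx was lower at 191.2, 194.6 and 181.6 against 444.8 and 417.3 CPM (log2 -1.19, SE 0.19, adjusted p = 0.000524, and 0.0107 in the reduced fit), and Lrig1 was not called (adjusted p = 0.303).

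Polycomb and cell cycle inhibitor genes gave 1 higher and 6 lower of 28 tested (2 and 2 in the reduced fit), and 1 and 2 without enteroendocrine replicate 1 or Bmi1-GFP replicate 2. Cdkn2b, which encodes the inhibitor p15 and is a known target of Polycomb silencing, stood at 113.2, 87.43 and 98.75 against 26.76 and 24.64 CPM (log2 1.96, SE 0.3, adjusted p = 0.000409, and 0.0148 in the reduced fit). All 3 Bmi1-GFP libraries were above both others. For the counts of this list, the shares over all genes were 12.6% higher and 12.1% lower. Cdkn2a, its neighbour and the best known target of BMI1, had 1 read or none in each of the 5 libraries and was not tested. Ring1 and Jarid2, genes of Polycomb complex members, were 1.7-fold and 2.07-fold lower (adjusted p = 0.0132 and 0.00453), and the reduced fit kept neither (0.107 and 0.248). Ring1 was also lost without enteroendocrine replicate 1 (0.0942) or Bmi1-GFP replicate 2 (0.0601), and Jarid2 without enteroendocrine replicate 2 (0.165).

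Mitotic genes were higher in Bmi1-GFP cells, 10 of 30 tested and 0 lower (median log2 0.58), and 5 and 0 in the reduced fit. Without enteroendocrine replicate 1, 0 were called. Ccnb1, the mitotic cyclin gene, stood at 68.88, 92.09 and 84.72 against 34.08 and 44.71 CPM (log2 1.05, SE 0.23, adjusted p = 0.00406, 0.0181 in the reduced fit and 0.0808 without enteroendocrine replicate 1). Mki67, the proliferation antigen gene, stood at 140.7, 156.5 and 162.3 against 81.39 and 88.85 CPM (log2 0.85, SE 0.2, adjusted p = 0.00546, 0.0382 in the reduced fit and 0.0736 without enteroendocrine replicate 1). The groups did not overlap for either gene. Of DNA replication genes, 2 of 30 tested were higher and 0 lower (median log2 0.26), and 0 in either direction in the reduced fit. The helicase gene Mcm6 was not called at 114, 168.5 and 150 against 129.5 and 109.6 CPM (adjusted p = 0.423). For the counts of both lists, the shares over all genes were 12.6% higher and 12.1% lower. The difference between the mitosis and replication lists was not tested.

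Interferon response and antigen presentation genes were higher in 11 of 27 tested and lower in 0 (median log2 0.87), and in 3 and 0 in the reduced fit and without either enteroendocrine replicate. Igtp, an interferon-induced GTPase gene, stood at 89.51, 49.88 and 91.41 against 7.787 and 8.842 CPM (log2 3.21, SE 0.62, adjusted p = 0.00172, and 0.0308 in the reduced fit). Oasl2, an interferon-induced gene, stood at 48.25, 43.71 and 50.29 against 14.23 and 26.41 CPM (adjusted p = 0.00614, 0.0102 in the reduced fit and 0.127 without enteroendocrine replicate 1). B2m, the light chain of MHC class I, was 2.5-fold higher (adjusted p = 0.00756), but not in the reduced fit (0.0968) or without enteroendocrine replicate 2 (0.0787). Lymphocyte genes were higher in the same libraries, and their part in this was not tested. For the counts of the interferon list, the shares over all genes were 12.6% higher and 12.1% lower.

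Immediate early and heat shock genes are known to respond to the handling of cells. Of 30 such genes tested, 3 were lower in Bmi1-GFP cells and 0 higher (median log2 -0.26), beside 12.1% and 12.6% over all genes. The reduced fit called 2 lower and 0 higher (median -0.47), and without enteroendocrine replicate 1 none was called in either direction (median 0.04). Without Bmi1-GFP replicate 2 or 3, 1 was lower. The part of the enzymes and digestion times was not tested. Fos and Jun, chosen after their values were seen, were not called (adjusted p = 0.715 and 0.404). Gadd45a, a stress-induced gene, stood at 80.93, 57.75 and 57.06 against 172.9 and 140.6 CPM (adjusted p = 0.00434, 0.0309 in the reduced fit and 0.0593 without enteroendocrine replicate 1).

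Glycolysis and hypoxia genes were split, with 7 of 21 tested higher and 2 lower, beside 12.6% and 12.1% over all genes. Without Bmi1-GFP replicate 1, 4 were higher and 2 lower. The counts also changed when an enteroendocrine replicate was left out. Ddit4, an inhibitor of mTOR signalling, was lower at 9.991, 12.48 and 15.6 against 66.34 and 48.33 CPM (log2 -2.17, SE 0.36, adjusted p = 0.000696, and 0.00912 in the reduced fit). The glycolytic enzyme gene Gpi1 was 1.98-fold higher (adjusted p = 0.00313, 0.0248 in the reduced fit and 0.0649 without enteroendocrine replicate 1). In the unfolded protein response and translocation list 4 of 29 were higher and 5 lower (1 and 4 in the reduced fit), beside 12.6% and 12.1% over all genes. Without enteroendocrine replicate 1 the list had 0 higher and 0 lower, and without Bmi1-GFP replicate 2 it had 3 and 2. Sec61b, a subunit of the ER translocon, stood at 120.9, 133.5 and 145.5 against 489.3 and 294 CPM (log2 -1.55, SE 0.32, adjusted p = 0.00246, 0.00999 in the reduced fit and 0.0671 without enteroendocrine replicate 1). The stress factor gene Ddit3 was 3.01-fold lower (adjusted p = 0.00823, 0.0249 in the reduced fit and 0.163 without enteroendocrine replicate 1), while the chaperone gene Hspa5 was not called (adjusted p = 0.188).

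Ribosomal protein genes, a family added after values had been seen, were lower in 65 of 80 tested and higher in 0 (median log2 -1.12). The shares over all genes were 12.1% lower and 12.6% higher. The reduced fit called 48 lower and 0 higher, and without enteroendocrine replicate 1 6 were lower. Their summed level was 21860, 25170 and 24300 CPM in Bmi1-GFP libraries against 58690 and 40380 CPM in enteroendocrine libraries. It was 25120 and 21760 CPM in Paneth libraries and 29520 to 75100 CPM in Lgr5-GFP-Cre libraries.

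**Figure D5:**
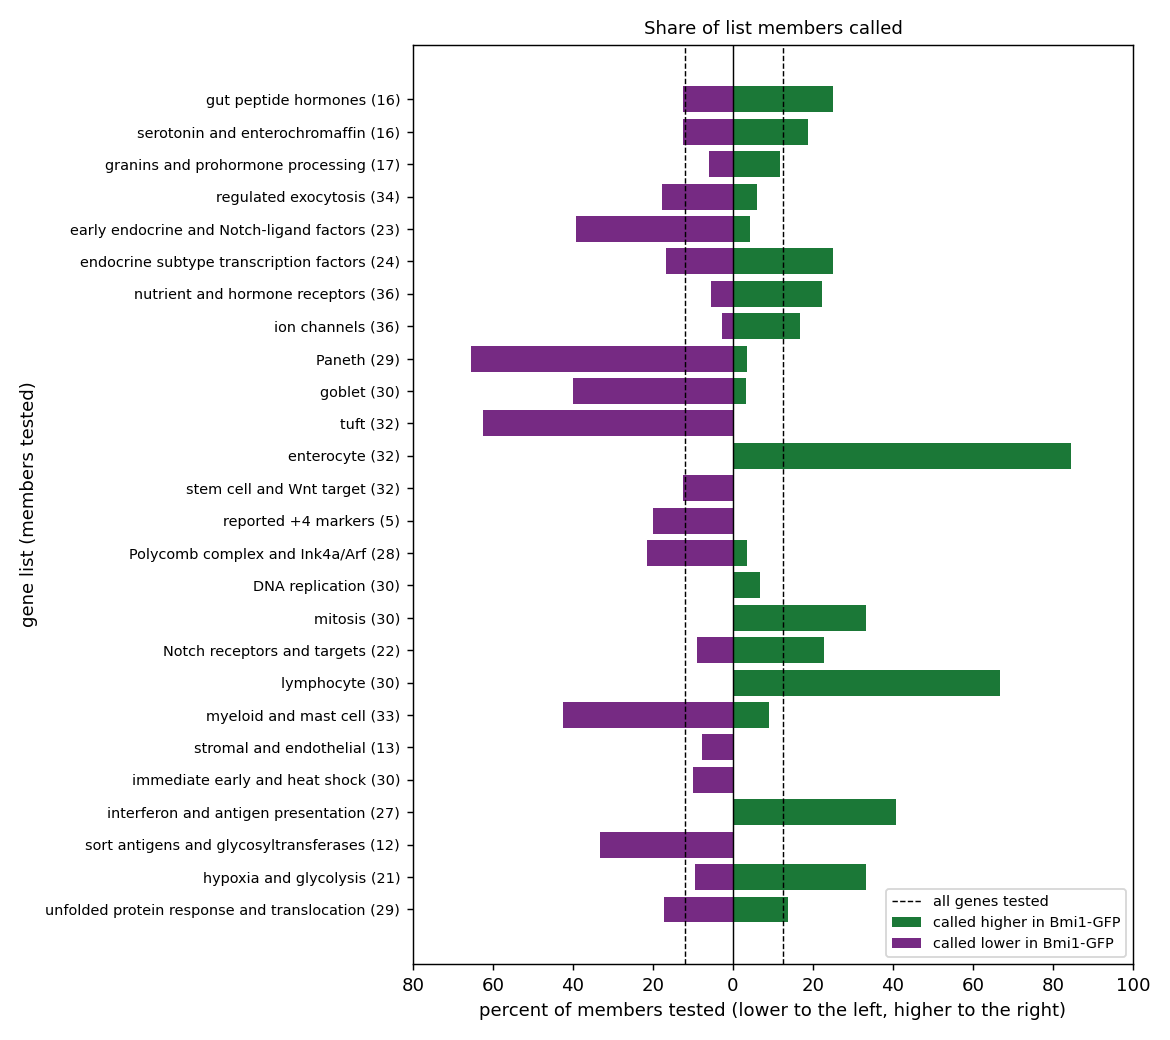
Percent of tested members of each gene list (y axis, number tested in brackets) called higher in Bmi1-GFP (green, to the right) or lower (purple, to the left) in the fit on 24 libraries, with dashed lines at 12.6% and 12.1%, the shares over all genes tested. Enterocyte, lymphocyte and interferon genes reach furthest to the right, and Paneth, tuft, myeloid, goblet and early endocrine genes to the left.

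The largest differences outside the cell type markers were also described, under the rule that takes the 12 largest calls per direction. Pzp, which encodes a secreted protease inhibitor of the alpha-2-macroglobulin family, stood at 60.65, 93.64 and 113.7 against 0 and 0.7689 CPM (log2 7.67, SE 1.07, adjusted p = 0.000192). Enpp7, an alkaline sphingomyelinase gene of the brush border, stood at 48.96, 28.23 and 47.45 against 0 and 1.845 CPM (adjusted p = 0.000851). Both were kept in the reduced fit (0.00292 and 0.00584). The cytochrome P450 genes Cyp2j5 and Cyp2c55 and the phosphate transporter gene Slc34a2 were 47.6-fold, 34.6-fold and 21.6-fold higher (adjusted p = 0.000598, 0.00198 and 9.79e-05, and 0.0204, 0.0262 and 0.00772 in the reduced fit). Cyp2c55 varied most, at 68.35, 15.64 and 204.3 CPM in Bmi1-GFP cells. Slc5a4a, a gene of the sodium-glucose transporter family, was 22.2-fold higher (adjusted p = 0.00481), and the reduced fit did not keep it (0.0762).

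On the low side, Nrep, whose product is linked to cell movement and regeneration, had the smallest p of the genes named here, at 2.174, 2.175 and 2.141 against 66.86 and 38.48 CPM (log2 -4.6, SE 0.32, adjusted p = 2.18e-07, and 1.32e-05 in the reduced fit). The 3 Bmi1-GFP libraries were nearly equal. Ooep, known from oocytes, stood at 0.4702, 0.8287 and 0.5243 against 38 and 17.65 CPM (log2 -5.5, SE 0.92, adjusted p = 0.000696, and 0.00632 in the reduced fit). Pate4, known from the male reproductive tract, stood at 0.1763, 0.1554 and 0.3495 against 17.45 and 31.41 CPM (log2 -6.68, SE 0.84, adjusted p = 9.79e-05, and 0.00369 in the reduced fit). Unlike most lower genes of this rule, Pate4 was higher in enteroendocrine replicate 2 than in replicate 1, as Gng13 was. Tnfaip2, a TNF-induced gene, was 46.5-fold lower (adjusted p = 0.000366, and 0.00513 in the reduced fit).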

How the data were processed

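Read counts per gene, deposited by the authors as 1 table of 24062 gene symbols, were used as raw counts. The submitters' processing notes name mm10, Bowtie2, DESeq2 and TopHat2 2.0.6. The counting program, annotation and strand are not given here, so overlapping genes cannot be separated. Per the labels' protocols libraries were made with SMART-Seq v4 and sequenced as 75 bp single-end reads. Each column was matched to its sample by name. Genes that passed filterByExpr (minimum count 10, total 15) of edgeR 4.0.16 in R 4.3.3 were scaled by TMM and tested with 1 quasi-likelihood model over 24 libraries of 11 groups (common dispersion 0.0714). SE is the absolute log2 fold change over the square root of F. The test was checked on simulated counts. RefSeq symbols or synonyms of GRCm38.p6 matched 14772 of 14837 genes tested. In the table Clca1 is under its older symbol Clca3.

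The comparison, the gene lists and the tests were chosen with earlier results of these data known. Named genes are Bmi1, Cd24a, Fut1 and Fut2, the 12 largest calls per direction with a mean of at least 20 CPM in the higher group and no overlap, and in each list the most expressed uncalled member and up to 4 called members by adjusted p. Hormone, granin, factor, tuft, lymphocyte and myeloid members, and defining markers, may be given by value. Alternatives were DESeq2 1.42.0, its size factors, no filter, the 2 groups only, replicate blocks, no TruSeq libraries and each replicate left out. The reduced fit was chosen after seeing the data. The single irradiated library was not analysed here, and values of some genes are not reported here.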

Additional observations from a re-analysis of the deposited data

How the results depend on the processing

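Of the 3665 calls, DESeq2's size factors kept 3617 and DESeq2 itself 3517, all in the same direction, and the other planned fits moved the counts of all, higher and lower calls as follows. Leaving out each replicate in turn gave 1152 to 2917 calls, 548 to 1821 higher and 604 to 1333 lower, the fewest of each without enteroendocrine replicate 1. The reduced fit, chosen after seeing the data, gave 1821 calls, 1052 higher and 769 lower, in place of 3665, 1874 and 1791. It uses fewer samples, and 25 of the 108 named genes that were called lost their call in it. With the replicate number as a block, 2920 genes were called, and 2113 (1271 higher, 842 lower) on the compared groups only, the cause of which was not tested. Same-numbered libraries deviated from their group means with correlations of -0.0306 and 0.0371. The deviations of the enteroendocrine libraries mirror each other by construction, so these values cannot decide whether the replicate numbers pair the samples. No named gene called in the fit on 24 libraries or in an alternative run changed direction between them. Changes of sign in genes called in neither were not counted. Depth and the enteroendocrine columns both limit precision, and their shares were not tested. The counts carry no molecular identifiers, so reads copied in amplification were not separated.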

Other observations

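Some other values bear on how Bmi1-GFP libraries differ among themselves. Bmi1-GFP replicate 3 had the lowest summed level of granin genes (2850 CPM against 6440 and 6946 CPM) and tuft genes (1099 CPM against 2692 and 2168 CPM) and the highest of enterocyte genes (32490 CPM against 19570 and 13760 CPM). Replicate 1 had the highest lymphocyte sum (3344 CPM). Pcsk1n, a convertase inhibitor gene, stood at 42.26, 30.3 and 1.835 CPM in Bmi1-GFP libraries and 8.021 and 4.959 CPM in enteroendocrine libraries, and was not called (adjusted p = 0.188).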
